A study of Mus musculus with 6 samples.

Results

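Glucose uptake, glycolysis and insulin signalling were examined in the inguinal white adipose tissue of Atf7 knockout (KO) and wild-type (WT) mice, a fat depot under the skin. The genes were a list of 41, made of 21 genes of glucose and lactate handling and 20 genes of the insulin and insulin-like growth factor (IGF) pathway. Of the 41, 38 were measured, among 19937 named genes on the array. All 20 signalling genes and 18 of the 21 glycolytic genes were measured. Gapdh was listed only in probe sets shared with other genes, and Gpi1 and Eno1 were not analysed here. RNA came from 3 KO mice and 3 WT mice, 1 Affymetrix array per mouse. All were males of the C57BL/6 strain aged 5 weeks, and the WT mice were littermates from the same heterozygous crosses. Atf7 belongs to the ATF/CREB transcription factors, and the part of the gene removed in the KO is not given by the labels. Each gene was read from the probe set with the highest mean over the 6 arrays, in log2 expression units as deposited.

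Glycolysis splits glucose into pyruvate in the cytosol, and lactate dehydrogenase interconverts pyruvate and lactate. Adipocytes take up glucose through GLUT1, encoded by Slc2a1, and through the insulin-responsive GLUT4, encoded by Slc2a4. Insulin binds its receptor, which acts through IRS adaptors, PI3-kinase and AKT to bring GLUT4 to the cell surface and to promote lipid storage. Brown and beige adipocytes, which burn fuel for heat, use glucose avidly.

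The labels were checked first. Atf7 probe set 10433032 was at 6.22, 6.53 and 6.49 in KO mice, against 8.95, 9.20 and 9.07 in WT mice, a difference of -2.66 (limma's adjusted p 0.00658 over all probe sets). The other Atf7 probe set, 10433034, has the higher mean and was at 9.23, 9.10 and 9.42 in KO and 9.34, 9.39 and 9.52 in WT, a difference of -0.17 (adjusted p 0.730). Whether either probe set lies in the removed part is not given, so the drop rests on 1 of 2 probe sets. Adipoq, the adipocyte hormone adiponectin, was at 12.46, 12.24 and 12.68 in KO and 12.37, 12.52 and 12.52 in WT, with the groups overlapping. KO replicate 3 stood apart from the rest. Its correlations with the other 5 arrays ran from 0.969 to 0.981 across probe sets, against 0.984 to 0.990 among those 5. Scores were made for 2 kinds of other cells as the mean of their marker genes, centred over the 6 arrays. The lymphocyte score, over 17 B cell and 21 T cell markers, was -0.11, 0.60 and -2.41 in KO mice, against 0.67, 0.51 and 0.74 in WT mice. The skeletal muscle score, over 22 markers, was 1.18, -1.11 and -1.12 in KO and -1.18, 1.83 and 0.39 in WT. KO replicate 3 was thus lowest in lymphocyte markers, and muscle markers were high in KO replicate 1 and WT replicates 2 and 3.

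No gene of the list passed the test across all genes. Limma called 0 of the 38, and 0% of all 19937 genes, at an adjusted p under 0.05. The adjusted p-values of the 38 ran from 0.622 to 0.997. At an unadjusted p under 0.05, 4 of the 38 genes (10.5%) were higher in KO, namely Ldhb, Pfkl, Grb14 and Akt2, where 4.99% of all genes were. Slc2a1 was the 1 gene (2.63%) lower in KO at that level, where 2.48% of all genes were. The KO arrays lay wholly above the WT arrays for 3 of the 38 genes, against 7.96% of all genes, and below for 1, against 5.97%. The shares lower at an unadjusted p under 0.05 and wholly above are near those of all genes. The share wholly below (2.63%) is under that of all genes and rests on 1 gene. The share higher at an unadjusted p under 0.05 is above that of all genes and rests on 4 genes. In bulk tissue, fewer cells of a type and less RNA per cell cannot be told apart.

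Most of the glucose and lactate genes had a higher mean in KO, by small amounts. Of the 18 glycolytic genes, 13 had a positive difference, with a median of 0.21 on the log2 scale. Of the 20 signalling genes, 12 were positive, with a median of 0.05. Over all genes, 53.0% were positive and the median was 0.01. The glycolytic median was 0.08 without KO replicate 3, 0.14 without WT replicate 3 and 0.0014 after adding the lymphocyte score to the model. The mean level of the 18 glycolytic genes, centred over the arrays, was 0.12, -0.07 and 0.20 in KO mice, against -0.13, 0.13 and -0.25 in WT mice, so the groups overlapped. KO replicate 3 and WT replicate 2 were the highest arrays of their groups.

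**Figure D1:**
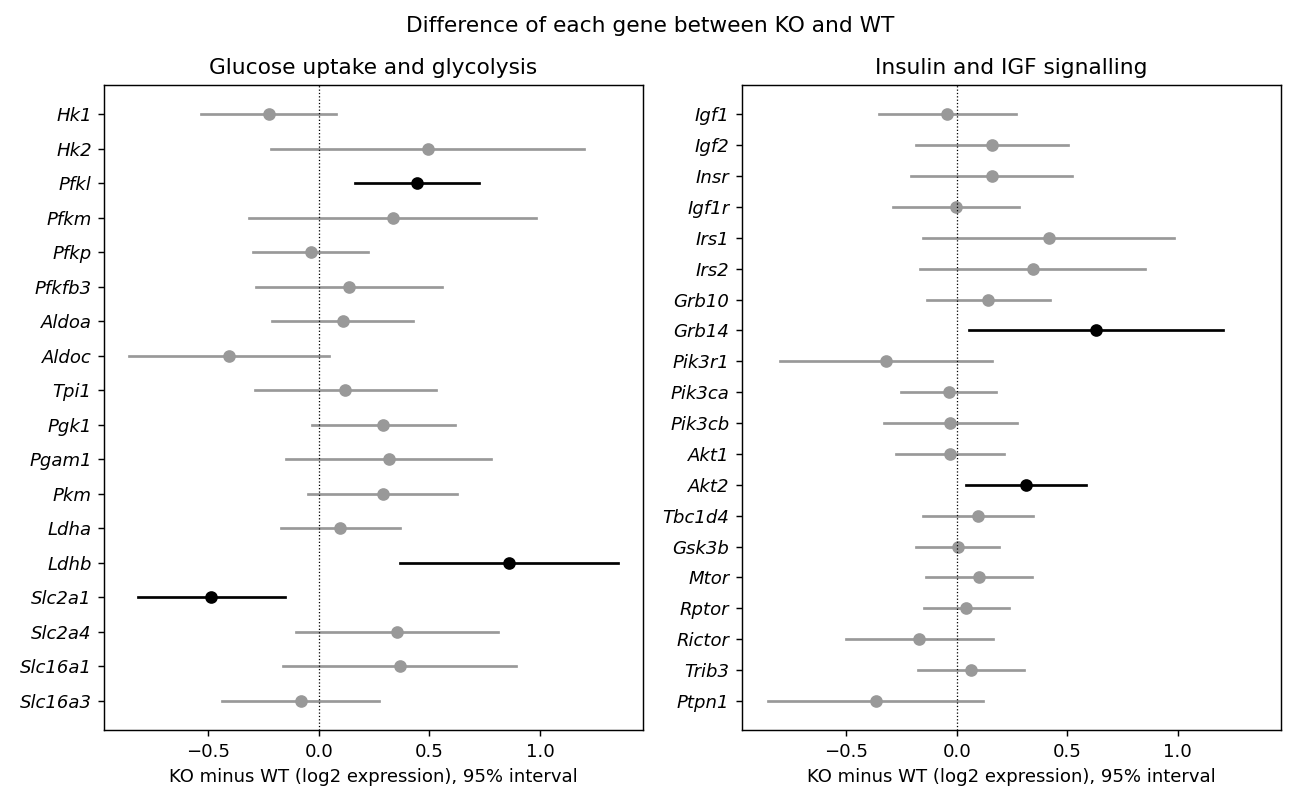
Difference of each gene between KO and WT in log2 expression units (horizontal axis), with limma's 95% interval as the bar, for 18 glycolytic genes (left) and 20 signalling genes (right). Black marks the 5 genes at an unadjusted p under 0.05, and the other 33 intervals, in grey, span 0.

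Ldhb had the largest difference of the 38 genes. It encodes the B subunit of lactate dehydrogenase, the form typical of heart and other oxidative tissues. Ldhb was at 9.33, 9.08 and 9.70 in KO mice, against 8.52, 8.82 and 8.19 in WT mice. The groups did not overlap, with KO higher, and the means were 9.37 ± 0.32 in KO and 8.51 ± 0.32 in WT (SD, n = 3 each). The difference was 0.86 (SE 0.21), or 1.82-fold higher in KO, with a limma unadjusted p of 0.00429 and an adjusted p of 0.622. A second probe set named Ldhb was higher in KO by 0.94, at 9.16, 8.82 and 9.62 in KO and 8.33, 8.57 and 7.87 in WT. The number of this probe set lies among those of another chromosome, 17 of 20 placed neighbours, and which transcripts it detects was not tested. Under all 17 alternatives the Ldhb difference stayed positive, between 0.59 and 1.02, with an unadjusted p under 0.05 in each. The lowest of these values followed from adding the lymphocyte score to the model, and the difference was 0.69 without KO replicate 3.

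Ldha encodes the A subunit, the form typical of glycolytic muscle. Ldha was at 12.51, 12.25 and 12.57 in KO mice, against 12.33, 12.44 and 12.27 in WT mice, with the groups overlapping. Its difference was 0.10, with a 95% interval from -0.17 to 0.37 and a limma adjusted p of 0.804. The log2 value of Ldhb minus that of Ldha was then taken on each array, relative to the WT mean because 2 probe sets have no common zero. This ratio was 0.66, 0.67 and 0.97 in KO mice, against 0.03, 0.22 and -0.24 in WT mice. It was higher in KO by 0.77, or 1.70-fold, without overlap. The two-sided exact permutation p was 0.1, the smallest that 3 against 3 arrays can give. The difference ran from 0.64 without WT replicate 3 to 0.87 without WT replicate 2, and was 0.61 after adding the lymphocyte score to the model.

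**Figure D2:**
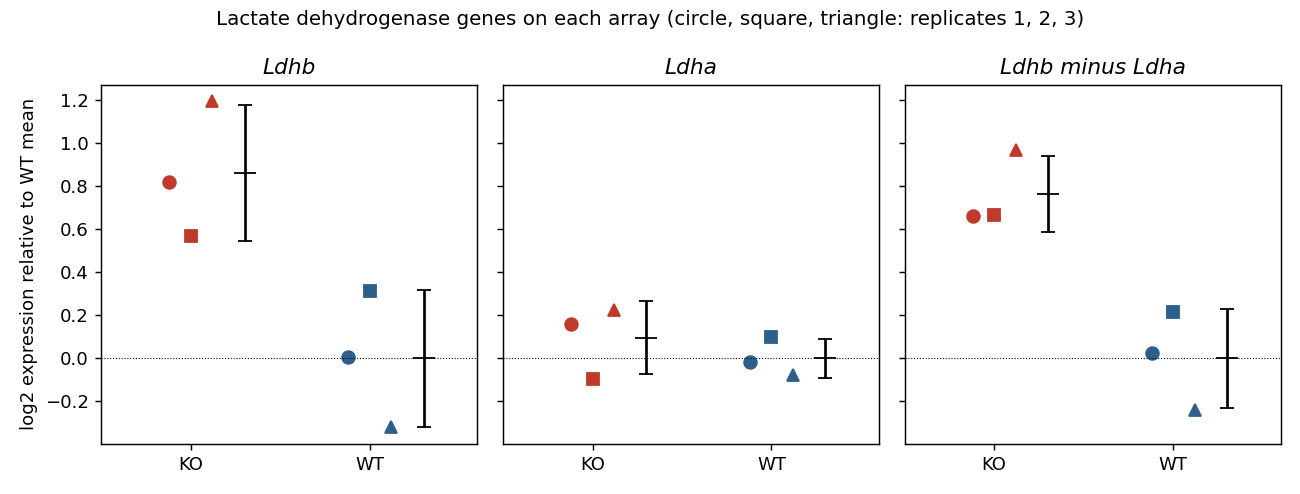
Ldhb, Ldha and the log2 value of Ldhb minus that of Ldha on each array, in log2 expression units relative to the WT mean (vertical axis), for KO (red, left) and WT (blue, right), with the mean and SD of 3 arrays in black. Ldhb and the ratio separate the groups, with the ratio at 0.66 to 0.97 in KO and -0.24 to 0.22 in WT, while Ldha overlaps.

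The promoters of this pair are shown for the cAMP response element, a motif that ATF/CREB proteins are known to bind. The 250 bases before the RefSeq start (GRCm38.p6) were searched on both strands for the cAMP response element TGACGTCA and for the E-box CACGTG. Other transcription factors bind the E-box, and matches are in capitals. The core TGACGT of the cAMP response element and the AP-1 motif TGACTCA were searched too. The windows are chr6:142507958-142508207, minus strand, for Ldhb and chr7:46845554-46845803, plus strand, for 1 of the 2 listed starts of Ldha, chosen because it holds that motif. The window of the other Ldha start holds none of the motifs searched.
Ldhb: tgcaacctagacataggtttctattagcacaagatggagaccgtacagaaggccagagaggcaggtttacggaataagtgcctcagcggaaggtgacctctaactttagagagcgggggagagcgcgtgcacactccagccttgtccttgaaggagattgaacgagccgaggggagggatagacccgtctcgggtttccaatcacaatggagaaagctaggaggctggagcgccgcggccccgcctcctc
Ldha: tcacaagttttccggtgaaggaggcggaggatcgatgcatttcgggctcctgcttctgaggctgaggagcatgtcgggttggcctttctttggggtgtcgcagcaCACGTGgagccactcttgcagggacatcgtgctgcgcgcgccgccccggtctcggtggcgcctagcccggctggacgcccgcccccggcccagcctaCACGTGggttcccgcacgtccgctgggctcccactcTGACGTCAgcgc
The Ldha window shown holds 1 cAMP response element, at -12 to -5 from the start, and an E-box at -145 to -140 and another at -48 to -43. The Ldhb window holds none of the motifs searched. A cAMP response element occurs in 1.55% of all 32851 promoter windows and an E-box in 6.02%. Among the 60 windows of 39 list genes that matched the RefSeq table, 1 held a cAMP response element, that of Ldha, and 6 held an E-box. The E-box genes were Irs1, Irs2, Ldha, Pfkfb3, Pfkm and Slc16a1. The core TGACGT was in windows of 5 of the 39 list genes, namely Grb10, Hk2, Ldha, Pfkfb3 and Slc16a3, and of 7.29% of all genes. Ldhb, Pfkl, Grb14, Akt2 and Slc2a1, the genes at an unadjusted p under 0.05, did not have any of these motifs in their windows. Over all genes, 1.77% had a cAMP response element, 6.86% an E-box and 5.16% the AP-1 motif. Their absence from 5 genes is thus not particular to these genes. Such matches describe the letters of these windows and do not show binding.

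The glucose transporter genes had estimates of opposite sign, and neither passed the adjusted test. Slc2a1, the basal transporter GLUT1, was at 8.36, 8.80 and 8.37 in KO mice, against 8.91, 9.12 and 8.96 in WT mice. The groups did not overlap, with KO lower, and the difference was -0.49 (SE 0.14), or 1.40-fold lower, with a limma unadjusted p of 0.0102 and an adjusted p of 0.622. KO replicate 2 was nearest to the WT arrays. Lymphocyte scores of the arrays were -0.11, 0.60 and -2.41 in KO and 0.67, 0.51 and 0.74 in WT. After adding the lymphocyte score to the model the difference was -0.36 and limma's unadjusted p 0.0504. Without KO replicate 3 the difference was -0.42. Beyond these values, the part of lymphocytes in the Slc2a1 difference was not tested. Slc2a4, the insulin-responsive GLUT4, was at 10.11, 9.88 and 10.30 in KO and 9.69, 10.12 and 9.43 in WT, with the groups overlapping at WT replicate 2. Its difference was 0.35 (SE 0.19), with a limma adjusted p of 0.624, and it became 0.54 when WT replicate 2 was left out and 0.19 when WT replicate 3 was. Skeletal muscle also expresses GLUT4. Muscle scores of the arrays were 1.18, -1.11 and -1.12 in KO and -1.18, 1.83 and 0.39 in WT. Adding the muscle score to the model gave a Slc2a4 difference of 0.41 (limma's unadjusted p 0.0943). Beyond that value, the part of muscle in the Slc2a4 values was not tested.

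Monocarboxylate transporters carry lactate and pyruvate across the cell membrane. Slc16a1, encoding MCT1, was at 9.61, 8.84 and 9.68 in KO mice, against 9.11, 9.06 and 8.86 in WT mice. KO replicates 1 and 3 lay above all WT arrays and KO replicate 2 below them. The difference was 0.37 (SE 0.22, limma's adjusted p 0.638), and it became 0.63 when KO replicate 2 was left out and 0.22 when KO replicate 3 was. Slc16a3, encoding the lactate exporter MCT4, was at 7.06, 6.85 and 6.90 in KO and 6.75, 7.30 and 7.01 in WT. Its groups overlapped and its difference was -0.08 (95% interval -0.44 to 0.27).

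**Figure D3:**
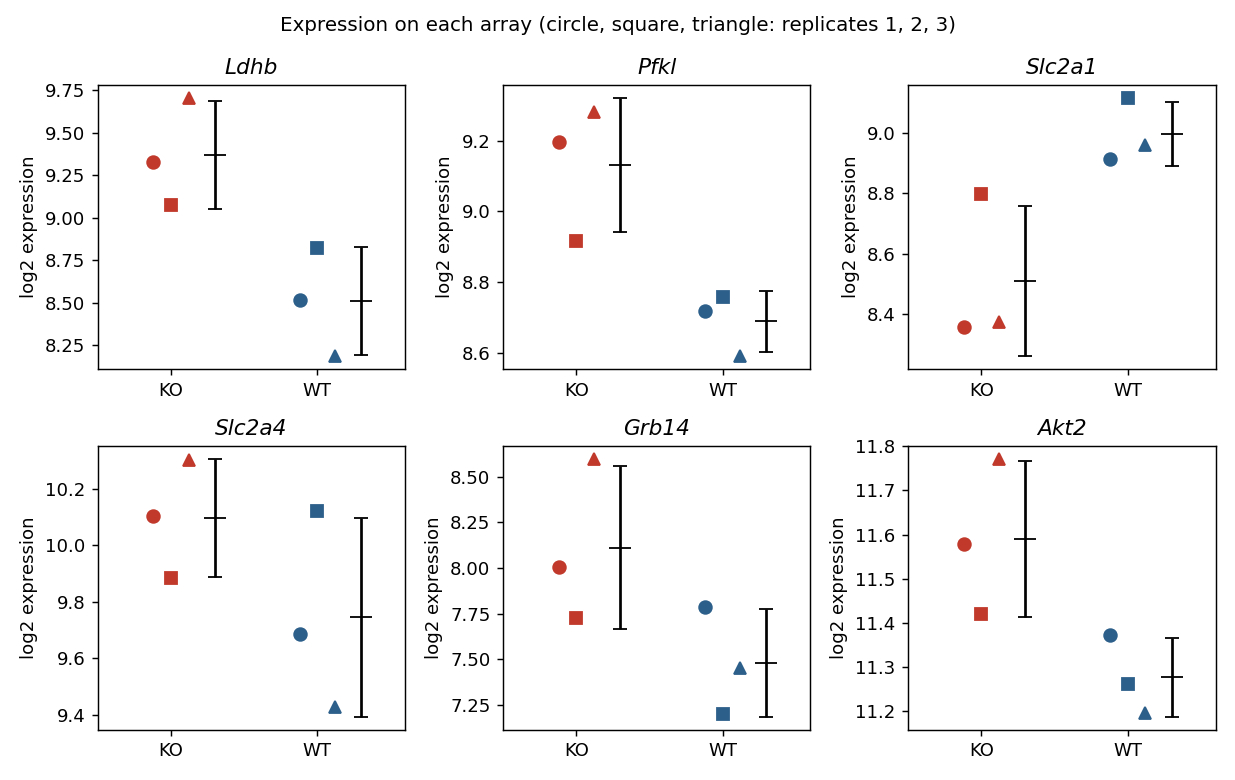
Log2 expression (vertical axis) of 6 genes on each array for KO (red, left) and WT (blue, right), with symbols for replicates 1, 2 and 3 and the mean and SD of 3 arrays in black. The groups do not overlap for Ldhb, Pfkl, Slc2a1 and Akt2, while WT replicate 2 for Slc2a4 and WT replicate 1 for Grb14 lie within the KO range.

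Hexokinases trap glucose in the cell as glucose 6-phosphate. Hk2, the insulin-regulated isoform, was at 8.58, 8.98 and 9.02 in KO mice, against 8.57, 8.87 and 7.67 in WT mice. The groups overlapped, and WT replicate 3 lay far below the other 5 arrays. The difference of 0.49 (SE 0.30) was 0.14 without WT replicate 3. Hk1, the broadly expressed isoform, differed by -0.23 (limma's adjusted p 0.627). The probe set behind that value had a number among probe sets of another chromosome, 13 of its 13 placed neighbours. Probe sets that name Hk1 together with Rpl17 were left out. The mean of the probe set used was 12.34 over the 6 arrays, against 7.74 for the other that names Hk1 alone. Which transcripts the probe set used detects was not tested. The other Hk1 probe set, numbered among genes of the same chromosome as Hk1, was at 7.75, 7.83 and 7.36 in KO and 7.79, 7.90 and 7.82 in WT, a difference of -0.19.

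Phosphofructokinase commits sugar to glycolysis, and differences between its 3 subunit genes were not tested. Pfkl, the liver-type subunit, was at 9.20, 8.92 and 9.28 in KO mice, against 8.72, 8.76 and 8.59 in WT mice. The groups did not overlap, with KO higher, and the difference was 0.44 (SE 0.12), or 1.36-fold higher, with a limma unadjusted p of 0.00729 and an adjusted p of 0.622. Its difference was 0.31 after adding the lymphocyte score to the model and 0.37 without KO replicate 3, with an unadjusted p under 0.05 under all 17 alternatives. Pfkm, the muscle-type subunit, was at 8.60, 7.95 and 8.43 in KO and 7.73, 8.58 and 7.67 in WT. KO replicate 1 and WT replicate 2, the arrays with the highest muscle scores, were the highest of their groups, and the difference was 0.33 (SE 0.27). Adding the muscle score to the model gave a Pfkm difference of 0.50 (limma's unadjusted p 0.0574). Pfkp, the platelet-type subunit, differed by -0.04 (95% interval -0.30 to 0.22). Pfkfb3, which makes the activator fructose 2,6-bisphosphate, differed by 0.14 (SE 0.18).

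Genes of the later steps were positive in most cases, by small amounts. Pgk1, phosphoglycerate kinase, was at 10.14, 9.96 and 10.23 in KO mice, against 9.81, 10.04 and 9.60 in WT mice, a difference of 0.29 (SE 0.14). Pkm, pyruvate kinase, was at 10.82, 10.60 and 10.75 in KO and 10.27, 10.73 and 10.30 in WT, also a difference of 0.29 (SE 0.14). In both genes WT replicate 2 was the 1 WT array inside the KO range. A second Pkm probe set, at 10.02, 9.87 and 9.95 in KO and 9.61, 9.81 and 9.65 in WT, did not overlap and differed by 0.25, but its number lies among probe sets of another chromosome, 17 of 18 placed neighbours. Pgam1, phosphoglycerate mutase, differed by 0.32 (SE 0.20) but by -0.0096 after adding the lymphocyte score to the model, and KO replicate 3 was its highest array, at 10.52. Its single probe set was numbered among genes of a chromosome other than its own. Aldoa, the main aldolase, and Tpi1, triose phosphate isomerase, differed by 0.11 and 0.12. Aldoc, the brain-type aldolase, was at 5.79, 5.98 and 5.62 in KO and 6.02, 6.62 and 5.96 in WT. Its difference was -0.41 (SE 0.19, limma's unadjusted p 0.0715), and -0.20 without WT replicate 2.

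Of 40 further genes of glucose and lactate metabolism, 35 were measured and 21 were positive, with a median difference of 0.07. Limma called 0 at an adjusted p under 0.05, and 4 (11.4%) were higher and 3 (8.57%) lower in KO at an unadjusted p under 0.05, where 4.99% and 2.48% of all genes were. Slc2a5, the fructose transporter GLUT5, had the smallest p, at 7.90, 7.47 and 7.76 in KO mice, against 6.74, 7.04 and 6.87 in WT mice. It was 1.77-fold higher in KO (log2 0.83, SE 0.14), with no overlap and a limma adjusted p of 0.602. Slc16a7, encoding the high-affinity monocarboxylate transporter MCT2, was higher by 0.54, and Ldhd, which oxidizes D-lactate, by 0.58. The testis form Ldhc was higher by 0.26, and its mean lay in the lowest 25% of genes. Lower in KO were the neuronal-type transporter GLUT3, Slc2a3, at -0.37 (SE 0.14), the transporter gene Slc2a6 at -0.45, and Adpgk, an ADP-dependent glucokinase, at -0.23. These 7 genes had no overlap between groups and adjusted p-values of 0.602 to 0.622. In all, the KO arrays lay wholly above the WT arrays for 6 of the 35 genes and below for 4, against 7.96% and 5.97% of all genes. The muscle isoenzymes Pgam2 and Eno3, chosen after their values were seen, were highest in KO replicate 1, at 7.42 and 9.79, and in WT replicate 2, at 7.99 and 10.38.

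No ligand or receptor gene passed the test. Igf1, a growth factor that fat tissue also secretes, differed by -0.04 (95% interval -0.35 to 0.27). Igf2 differed by 0.16 (SE 0.15). Insr, the insulin receptor, was at 9.68, 9.62 and 10.14 in KO and 9.68, 9.77 and 9.52 in WT. KO replicate 3 was the highest array, and the difference of 0.16 was -0.0035 when that array was left out. Igf1r differed by -0.0027 (95% interval -0.29 to 0.28).

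All 4 adaptor genes were positive, with a median of 0.38. Grb14, an adaptor that binds the activated insulin receptor and inhibits its kinase, was at 8.01, 7.73 and 8.60 in KO mice, against 7.79, 7.20 and 7.45 in WT mice. WT replicate 1 lay above KO replicate 2, so the groups overlapped. The difference was 0.63 (SE 0.24), or 1.55-fold higher, with a limma unadjusted p of 0.0354 and an adjusted p of 0.622. Leaving out KO replicate 1, KO replicate 3, WT replicate 2 or WT replicate 3 in turn gave unadjusted p-values of 0.0584, 0.0744, 0.115 and 0.0876. The difference was 0.39 without KO replicate 3 and 0.28 after adding the lymphocyte score to the model (unadjusted p 0.191). Irs1, a main substrate of the insulin receptor, was at 10.09, 9.53 and 9.82 in KO and 9.54, 9.75 and 8.90 in WT, overlapping because WT replicates 1 and 2 lay above KO replicate 2. Its difference was 0.42 (SE 0.24), and 0.17 without WT replicate 3. Irs2 was at 8.61, 7.89 and 8.27 in KO and 8.12, 7.57 and 8.05 in WT, a difference of 0.34 (SE 0.22), and 0.17 without KO replicate 1. Grb10, a relative of Grb14, differed by 0.14 (SE 0.12).

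The 3 PI3-kinase genes had negative estimates. Pik3r1, the regulatory subunit p85-alpha, differed by -0.32 (SE 0.20, limma's adjusted p 0.647), with WT replicate 2 the highest array at 11.38. That difference was -0.13 without WT replicate 2 and -0.53 after adding the lymphocyte score to the model. The catalytic subunits Pik3ca and Pik3cb differed by -0.04 and -0.03, with 95% intervals from -0.25 to 0.18 and from -0.33 to 0.27.

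Of the kinases below PI3-kinase, Akt2 differed most. Akt2 encodes the AKT isoform most tied to insulin-stimulated glucose uptake. It was at 11.58, 11.42 and 11.77 in KO mice, against 11.37, 11.26 and 11.20 in WT mice, with no overlap. The difference was 0.31 (SE 0.12), or 1.24-fold higher, with a limma unadjusted p of 0.0296 and an adjusted p of 0.622. This probe set was numbered among probe sets of another chromosome, 19 of 20 placed neighbours. The other Akt2 probe set, numbered among genes of the same chromosome as Akt2, was at 11.26, 11.12 and 11.47 in KO and 11.05, 10.98 and 11.05 in WT, also with no overlap. With it the difference was 0.26 and the unadjusted p 0.0524. Leaving out KO replicate 1, KO replicate 3, WT replicate 2 or WT replicate 3 gave unadjusted p-values of 0.0664, 0.0824, 0.0700 and 0.0888, and the replicate block 0.0508. Without KO replicate 3 the difference was 0.22, and after adding the lymphocyte score to the model 0.17 (unadjusted p 0.148).

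The remaining kinases and targets had estimates near 0, except for Rictor. Akt1 differed by -0.03 (95% interval -0.27 to 0.21). Gsk3b, the glycogen synthase kinase that AKT inhibits, was at 9.03, 9.02 and 9.08 in KO mice, against 9.00, 9.05 and 9.06 in WT mice, a difference of 0.0049 (95% interval -0.18 to 0.19). Tbc1d4, the AKT substrate that holds GLUT4 inside the cell, differed by 0.10 (95% interval -0.15 to 0.35). Mtor, the kinase of both mTOR complexes, differed by 0.10, Rptor, of the first complex, by 0.04 and Rictor, of the other, by -0.17.

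Neither inhibitor passed the test. Ptpn1, the phosphatase PTP1B that dephosphorylates the insulin receptor, was at 8.43, 8.81 and 7.94 in KO mice, against 8.70, 8.74 and 8.84 in WT mice. KO replicate 3 was the lowest array, and the difference was -0.37 (SE 0.21, limma's adjusted p 0.626). It was -0.14 without that array and -0.02 after adding the lymphocyte score to the model. Trib3, a pseudokinase reported to restrain AKT, differed by 0.07 (95% interval -0.17 to 0.30).

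Of 58 further insulin and IGF signalling genes, 52 were measured and 29 were positive, with a median difference of 0.01. Limma called 0 at an adjusted p under 0.05, and 3 (5.77%) were higher and 5 (9.62%) lower in KO at an unadjusted p under 0.05, where 4.99% and 2.48% of all genes were. Foxo1, the transcription factor that AKT excludes from the nucleus, was at 9.54, 9.66 and 9.57 in KO mice, against 9.90, 10.04 and 9.92 in WT mice, a difference of -0.36 (SE 0.09) with no overlap. Igfbp3 and Igfbp2, which bind IGFs outside the cell, differed by -0.63 and -0.35, Tbc1d1, a relative of Tbc1d4, by -0.53, and the pseudokinase Trib2 by -0.47. Higher in KO were the adaptor Sh2b2 (0.42), the AKT phosphatase Phlpp1 (0.31) and the lipid phosphatase Inppl1 (0.30). Their adjusted p-values were all 0.622. Tbc1d1, Trib2 and Igfbp3 were lowest in KO replicate 3, at 7.31, 7.67 and 7.75.

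The arrays contributed unequally to these differences. KO replicate 3 was the KO array farthest in the direction of the difference for 13 of 18 glycolytic and 10 of 20 signalling genes. KO replicate 2, the KO array with a lymphocyte score inside the WT range, was the nearest to the WT side for 15 of 18 and 12 of 20. Among WT arrays, replicate 2 was the highest for 14 of 18 glycolytic genes. Such counts are not given here over all genes, so they cannot be read as particular to this list. Each KO array also helps to set the direction of the difference. At an unadjusted p under 0.05, 7 glycolytic genes were higher when WT replicate 2 was left out and 5 when KO replicate 2 was, against 2 with all arrays. Over all genes the share higher was 4.06% when WT replicate 2 was left out and 10.4% when KO replicate 2 was, against 4.99% with all arrays. The thermogenic marker Ucp1, the uncoupling protein, was at 9.36, 8.76 and 9.65 in KO and 7.04, 5.97 and 6.05 in WT. Thermogenic markers, over 12 genes, averaged 0.46, 0.32 and 0.79 in KO mice, against -0.26, -0.61 and -0.70 in WT mice, so KO replicate 3 was highest in these too. Adipocyte markers, over 11 genes, averaged 0.01, -0.17 and 0.17 in KO and -0.05, 0.21 and -0.17 in WT. Lymphocyte, muscle and thermogenic markers varied among the arrays. By estimate 16 of 17 B cell, 21 of 21 T cell and 18 of 22 muscle markers were lower in KO, where 9362 of all 19937 genes were. B and T cell markers averaged lowest in KO replicate 3, at -2.76 and -2.13, and the muscle score overlapped between groups. Endothelial markers were higher in KO by estimate in 11 of 12 cases, where 53.0% of all genes were. They averaged 0.18, -0.08 and 0.20 in KO and 0.01, -0.12 and -0.21 in WT. At an unadjusted p under 0.05 in limma, 8 of 12 thermogenic, 3 of 12 endothelial and 1 of 16 macrophage markers were higher in KO, where 4.99% of all genes were. At that level 4 of 21 T cell, 1 of 11 adipocyte and 1 of 11 stromal markers were lower, where 2.48% of all genes were. Macrophage markers were higher by estimate in 13 of 16 cases and stromal markers in 9 of 11, where 53.0% of all genes were. Markers of a cell type can move together on an array, so such counts are not independent results. Beyond the values given with a score in the model, their part in the differences was not tested.

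**Figure D4:**
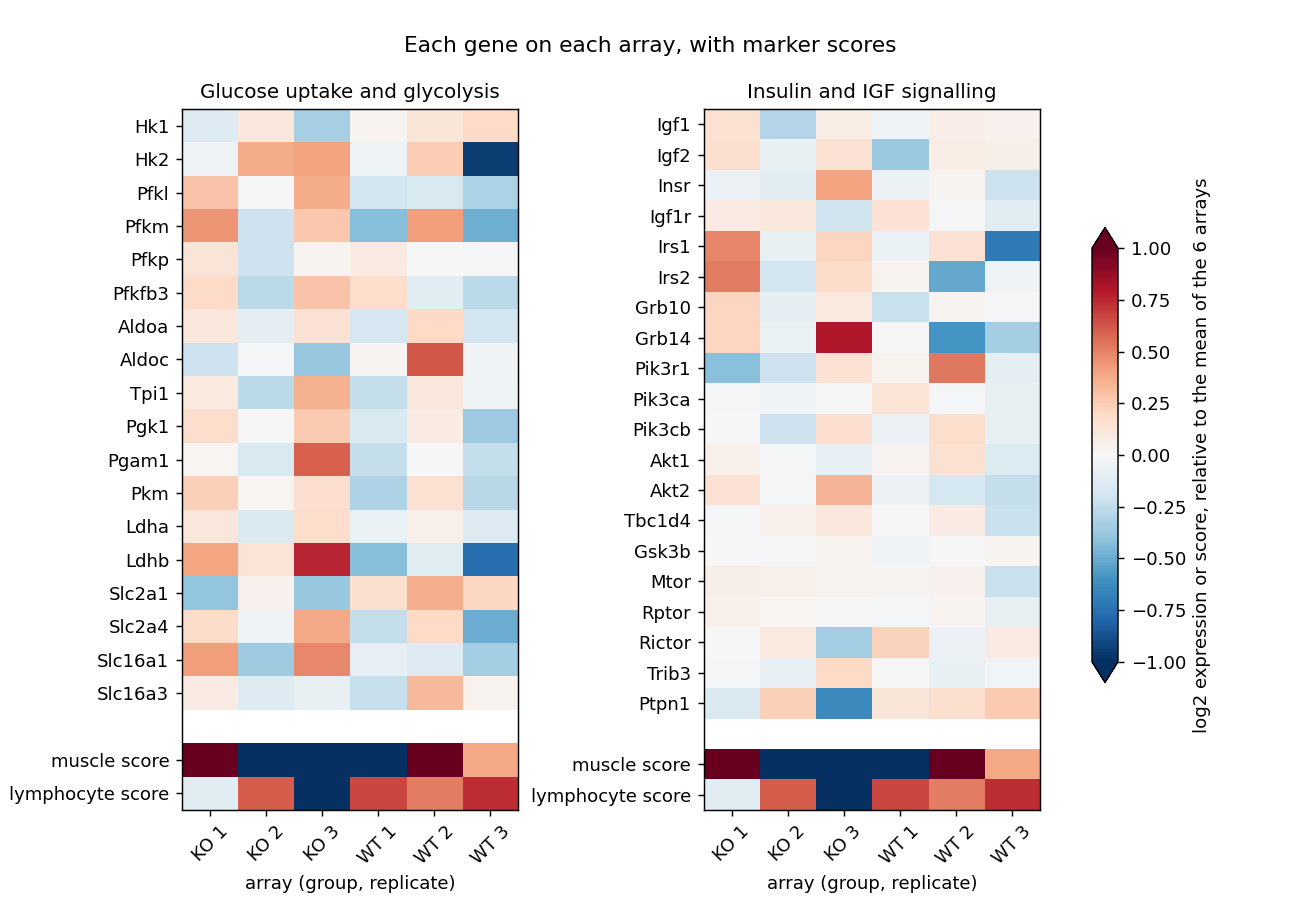
Log2 expression of each gene on each array relative to its mean over the 6 arrays (colour, limited to -1 to 1), KO arrays left of WT arrays, with the muscle and lymphocyte scores of each array below. KO replicate 3 has the lowest lymphocyte score (-2.41), and KO replicate 1 and WT replicate 2 have the highest muscle scores (1.18 and 1.83).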

How the data were processed

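RNA of 6 arrays was compared, 3 KO and 3 WT, with groups and replicate numbers from the sample titles. The deposited values are log2 expression per probe set, for 34760 probe sets. RMA, affy and limma are named for them, per the submitters' processing notes, with versions, options and genome build not given in the sources used here. RMA makes array distributions nearly equal, which hides any shift common to most genes. Array number, 3 per group, limits precision.

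Of the probe sets, 21640 had 1 gene symbol in the platform annotation, 1321 several and 11799 none, and 19855 of 19937 genes matched RefSeq. The test was limma (version 3.58.1, under R 4.3.3), by lmFit and eBayes on KO minus WT, two-sided, with Benjamini-Hochberg adjustment over 19937 genes and a threshold of 0.05. Standard errors and 95% intervals are limma's. The fit was tested on simulated data. The genes and lists were chosen with earlier results of these data known. Values on every array are given for a set of 9 genes, for genes of the list of 41 at an unadjusted p under 0.05 or without overlap, and for others where a statement rests on them, and those others were chosen after their values were seen. Alternatives were another normalization, a median shift, a filter on dim genes, other probe sets, a variance trend, array weights, the replicate number as a block, marker scores as covariates and leaving out each array. The choice of probe sets by their neighbours was added after seeing the data.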

Additional observations from a re-analysis of the deposited data

How the results depend on the processing

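No gene of the list passed an adjusted p of 0.05 in limma under any of the 17 alternatives, and the smallest adjusted p was 0.174, without KO replicate 2. The counts below are at an unadjusted p under 0.05, and the causes of the shifts were not tested. Replicate numbers were shared by KO and WT arrays, and the sample titles do not say whether they pair mice. Deviations of same-numbered arrays from their group means correlated at 0.0015, 0.033 and 0.044. KO replicates 2 and 3 correlated best with the same-numbered WT array, and KO replicate 1 with WT replicate 3. Correlations this weak, from 3 arrays per group, cannot decide whether mice were paired, and the main fit did not pair them. The replicate block gave 2 glycolytic genes lower, against 1, left the Ldhb minus Ldha difference at 0.77 and moved no other count by over 1.5 times. Under it Aldoc (unadjusted p 0.0187) and Irs2 (0.0192) passed and Akt2 (0.0508) did not, so the 2 signalling genes higher were Grb14 and Irs2. With array weights, 5 glycolytic genes were higher and 1 signalling gene lower, and of the further genes 5 glycolytic were lower and 6 signalling higher. With the lymphocyte score, 0 glycolytic genes were lower and their median was 0.0014, 0 signalling genes were higher and 1 lower, and of the further genes 2 glycolytic were higher and 0 lower, and 1 signalling higher and 1 lower. With the muscle score, 0 signalling genes were higher, and of the further genes 2 glycolytic were higher, and 1 signalling higher and 3 lower. Quantile normalization again gave 5 further signalling genes higher, and the choice of probe sets by neighbours gave 1 signalling gene higher. Leaving out 1 array gave 2 to 7 glycolytic genes higher and 1 to 2 lower, 0 to 3 signalling genes higher and 0 to 1 lower, 2 to 6 further glycolytic genes higher and 0 to 5 lower, and 0 to 6 further signalling genes higher and 1 to 9 lower. Over all genes the share then ran from 2.81% to 10.4% higher and from 0.963% to 8.47% lower, against 4.99% and 2.48% with all arrays. It was 8.10% and 6.67% with array weights, 2.30% and 1.67% with the lymphocyte score and 3.17% and 1.56% with the muscle score. With 1 array left out, the glycolytic median ran from 0.08 to 0.33.

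These differences turned in sign. Igf1r was at 0.011 with quantile normalization again and 0.025 with a common median. With array weights Igf1 was at 0.052, Igf1r at 0.0066, Pfkp at 0.00897 and Slc16a3 at 0.056. With the lymphocyte score Gsk3b was at -0.020, Igf1r at 0.13, Insr at -0.074, Ldha at -0.022, Pfkfb3 at -0.052, Pgam1 at -0.0096, Rictor at 0.022, Tpi1 at -0.12 and Trib3 at -0.052. With the muscle score Igf1 was at 0.0067, Pik3cb at 0.0042 and Slc16a3 at 0.013. Leaving out 1 array moved Igf1 from -0.13 to 0.093, Igf1r from -0.061 to 0.096, Insr from -0.0035 to 0.25, Pfkp from -0.11 to 0.056, Pik3ca from -0.081 to 0.026, Pik3cb from -0.12 to 0.070, Akt1 from -0.11 to 0.036, Gsk3b from -0.013 to 0.018, Slc16a3 from -0.22 to 0.056, Tpi1 from -0.026 to 0.29 and Trib3 from -0.018 to 0.12. Of the 38 genes, those whose sign did not turn under any alternative include Ldhb, Pfkl, Slc2a1, Grb14 and Akt2. A stable sign was not particular to these, since Rptor and Tbc1d4 (limma's unadjusted p 0.603 and 0.395) kept theirs too.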
